A study of Mus musculus with 6 samples.

Results

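The 7 genes described here encode the RUNX transcription factors (Runx1, Runx2 and Runx3), their shared partner CBF-beta (Cbfb) and the ETO family of corepressors (Runx1t1, Cbfa2t2 and Cbfa2t3). They were chosen by name, and the estimated reads of their annotated transcripts were summed per gene, which gave 7 of 35498 genes. Poly-A RNA was sequenced from mouse ventricle below the ligature, 7 days after the left anterior descending coronary artery was tied to produce a myocardial infarction. The mice were C57BL/6J, aged 8 to 10 weeks, and received a tamoxifen diet from surgery until collection. Both groups carried Postn CreER+/-, a recombinase that tamoxifen activates and that the periostin (Postn) promoter drives, so recombination is limited to cells that use this promoter, which activated fibroblasts do. The control group (CTL, n = 3, genotype Runx1 WT) held 1 female and 2 males. The knockout group (Runx1_FB_KO, n = 3, genotype Runx1 fl) held 1 male and 2 females. The labels give neither the exon removed nor whether the allele was on both chromosomes, and do not say whether a library is 1 animal or a pool, so p-values measure only the spread between these libraries. The comparison asks what loss of Runx1 in periostin-expressing cells does in the infarcted heart.

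RUNX proteins bind DNA through the runt domain. CBF-beta does not bind DNA itself but joins each RUNX protein and raises its hold on DNA and its stability. Runx1 is required for blood stem cell formation, Runx2 for bone formation and Runx3 for T cell and sensory neuron development. Each RUNX gene is read from a distal and a proximal promoter, which give proteins with different amino ends. ETO proteins do not bind DNA but bring nuclear corepressors and histone deacetylases to transcription factors, and Runx1t1 is best known as the partner of RUNX1 in a leukaemia fusion.

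The distal promoters of the 3 RUNX genes share a block that holds the RUNX recognition motif. RefSeq windows (GRCm38.p6, 250 bases before to 50 after a start) were found for 6 of the 7 genes, 9 windows in all. The longest stretch common to the distal windows of Runx1, Runx2 and Runx3 was 18 bases, shown in capitals on the strand of each gene with the bases beside it.
Runx1: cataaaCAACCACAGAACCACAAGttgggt
Runx2: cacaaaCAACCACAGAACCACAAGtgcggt
Runx3: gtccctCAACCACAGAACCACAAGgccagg
The Runx1 stretch is chr16:92826025-92826054 (minus strand), the Runx2 stretch chr17:44814583-44814612 (minus strand) and the Runx3 stretch chr4:135120503-135120532 (plus strand). The block begins 26 bases after the RefSeq start in Runx1 and 21 after it in Runx2, and 136 bases before it in Runx3. It holds ACCACA, the reverse complement of the motif TGTGGT, in 2 copies. Of 32851 windows, 4 (0.0122%) hold the block on either strand: those of the 3 RUNX genes and that of Gm16225, a long non-coding RNA whose window overlaps the Runx3 window on the other strand.

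The motif alone is common. TGTGGT or its complement was in 16.8% of all windows, TGCGGT or its complement ACCGCA in 6.45%, and 2 or more matches to either in 2.86%. The distal window of Runx2 held 3 TGTGGT matches and 1 TGCGGT match, whereas the proximal windows of Runx1 and Runx3 and the single windows of Cbfb and Cbfa2t2 held 0 of both. Of the Cbfa2t3 windows, the upstream one held 1 TGCGGT match and the downstream one 0. A match describes letters only. No window was used for Runx1t1 or for the proximal start of Runx2.

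The genes lie on 5 chromosomes of GRCm38. Runx1 spans 92601466 to 92826149 of chromosome 16 and Runx2 44495987 to 44814797 of chromosome 17, both on the minus strand. Runx3 (135120652 to 135177990) and Runx1t1 (13743436 to 13893649) lie on the plus strand of chromosome 4. Cbfb (105170674 to 105217989, plus strand) and Cbfa2t3 (122625141 to 122699109, minus strand) lie on chromosome 8, and Cbfa2t2 (154436481 to 154539356, plus strand) on chromosome 2.

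The libraries held 16598561 to 19987279 estimated reads, and 14237 genes, all 7 described here among them, passed the filter on low counts. Mitochondrially encoded genes took 5.36% to 7.10% of the reads in CTL and 24.46%, 19.59% and 10.36% in Runx1_FB_KO replicates 1, 2 and 3. Runx1_FB_KO replicate 3 lay nearest to CTL. The labelled tissue was checked against 12 cardiomyocyte markers, none of which had 0 reads throughout, and whose summed level was 12808 to 16387 CPM (read counts relative to library size, after TMM scaling) in CTL. Their sum was 80026, 99622 and 31161 CPM in Runx1_FB_KO replicates 1, 2 and 3, above every CTL library. The 12 activated fibroblast markers, Postn among them, summed to 34931 to 36880 CPM in CTL and to 9116, 7503 and 30153 CPM in the knockout replicates. The 11 macrophage markers summed to 3343 to 5290 CPM in CTL and to 1414, 1353 and 3389 CPM.

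Cbfb and Runx1 led the family in the control infarct. Levels were compared per length, as TPM, which divides reads by transcript length and scales every library to the same total. Cbfb was at 51.7, 43.2 and 46.7 TPM in CTL replicates 1, 2 and 3, and Runx1 at 35.3, 28.0 and 31.2 TPM. These ranges did not touch each other, and both lay above those of the other 5 genes. Cbfb stood above 80.2% and Runx1 above 71.4% of tested genes in mean CTL TPM. The other 5 genes had mean TPM of 8.36 for Cbfa2t2, 6.66 for Cbfa2t3, 5.44 for Runx2, 4.58 for Runx3 and 3.67 for Runx1t1. Each of these overlapped its neighbour in the order, and they stood above 19.8% (Runx1t1) to 35.0% (Cbfa2t2) of tested genes. The Runx1t1 mean rests on CTL replicate 1, at 6.41 TPM against 2.51 and 2.09 TPM, of which 4.42 TPM came from 8.8 reads given to Runx1t1-205, a non-coding transcript of 405 bases. Without transcripts under 500 bases Runx1t1 was at 1.995, 2.51 and 2.09 TPM, and the order of the 7 genes did not change. Runx1t1 then lay apart from Runx3, which was at 4.05 TPM or more in CTL, so that overlap rested on those 8.8 reads.

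In the knockout group no neighbours in the order were apart. Runx1_FB_KO replicates 1, 2 and 3 had Cbfb at 13.4, 14.0 and 37.0 TPM and Runx1 at 2.90, 1.71 and 18.9 TPM, with Runx3 lowest on average at 1.05 TPM. TPM shares its total with the mitochondrial reads, so differences between groups are given below as CPM, and the groups are not compared gene by gene in TPM.

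All 3 RUNX factors were lower in every knockout library than in any CTL library. Runx1 was at 96.4, 86.9 and 85.5 CPM in CTL and at 17.5, 10.9 and 67.5 CPM in Runx1_FB_KO, means of 89.6 ± 5.89 and 31.9 ± 30.9 CPM (SD, n = 3). The 3 knockout libraries thus held 19.5%, 12.1% and 75.3% of the CTL mean, and replicate 3 stood apart from the others. The log2 fold change of Runx1 was -1.48 (SE 0.63, edgeR adjusted p = 0.154). The reads counted come from all exons and all cells of the tissue, and in bulk RNA fewer cells of a type and less RNA per cell cannot be told apart.

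The paralogs that were not targeted also lay below CTL in every knockout library. Runx2 was at 20.0, 12.5 and 13.4 CPM in CTL and at 4.12, 3.51 and 11.1 CPM in Runx1_FB_KO, which is 26.9%, 22.9% and 72.2% of the CTL mean. The log2 fold change of Runx2 was -1.28 (SE 0.47, edgeR adjusted p = 0.123). Runx3 was at 10.2, 8.59 and 8.15 CPM in CTL and at 1.77, 1.17 and 5.87 CPM in Runx1_FB_KO. Its 3 knockout libraries held 19.7%, 13.1% and 65.4% of the CTL mean, close to the percentages of Runx1 in the same libraries. The log2 fold change of Runx3 was -1.59 (SE 0.58, edgeR adjusted p = 0.123). Fewer than 5% of tested genes had a lower fold change than any of the 3 factors, with 2.74% below Runx1, 4.64% below Runx2 and 2.05% below Runx3.

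Cbfb, the shared partner, had a smaller fold change. It was at 77.7, 64.5 and 64.5 CPM in CTL and at 39.0, 41.2 and 61.4 CPM in Runx1_FB_KO, with means of 68.9 ± 7.61 and 47.2 ± 12.3 CPM (SD, n = 3). Replicate 3, at 89.1% of the CTL mean, nearly reached the lowest CTL library, whereas replicates 1 and 2 held 56.6% and 59.8%. The log2 fold change of Cbfb was -0.55 (SE 0.21, edgeR adjusted p = 0.135), and 24.0% of tested genes had a lower one.

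**Figure D1:**
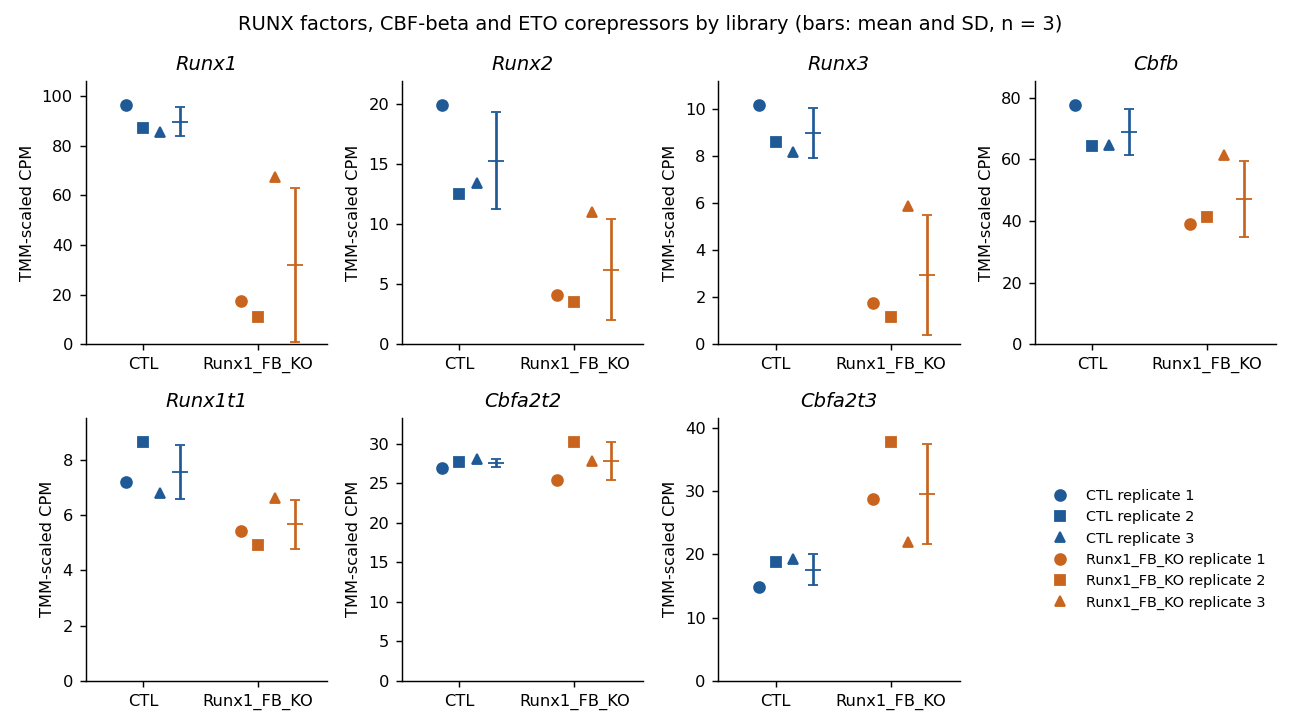
TMM-scaled CPM of each of the 7 genes (vertical axes from 0, 1 scale per gene) in the 3 CTL (blue) and 3 Runx1_FB_KO (orange) libraries, with the symbol marking the replicate number and the bar the mean and SD. The 3 RUNX genes share a pattern in which knockout replicates 1 and 2 lie far below CTL and replicate 3 lies between, Cbfa2t2 is level, and Cbfa2t3 runs the other way.

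The ETO corepressors did not move as a group, with Runx1t1 lower, Cbfa2t2 level and Cbfa2t3 higher. Runx1t1 was at 7.20, 8.66 and 6.81 CPM in CTL and at 5.44, 4.92 and 6.64 CPM in Runx1_FB_KO, so that the groups were separated by only 6.81 against 6.64 CPM. Runx1t1 had a log2 fold change of -0.41 (SE 0.24, edgeR adjusted p = 0.251). With an offset for effective length it was -1.01 (edgeR adjusted p = 0.181). Cbfa2t2 was level, at 26.9, 27.7 and 28.1 CPM in CTL and at 25.3, 30.2 and 27.8 CPM in Runx1_FB_KO, with overlapping groups. Cbfa2t2 had a log2 fold change of 0.01 (SE 0.14, edgeR adjusted p = 0.957). Cbfa2t3, which works with LDB1 and SCL complexes in blood progenitors, was the only one of the 7 genes with higher values in every knockout library. It was at 14.8, 18.8 and 19.2 CPM in CTL and at 28.8, 37.8 and 22.0 CPM in Runx1_FB_KO, with means of 17.6 ± 2.44 and 29.5 ± 7.93 CPM (SD, n = 3). The knockout libraries held 163%, 215% and 125% of the CTL mean. The log2 fold change of Cbfa2t3 was 0.75 (SE 0.23, edgeR adjusted p = 0.0971).

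The scaling shifted the fold changes of the ETO genes, but only Cbfa2t2 changed sign. Scaled by library size alone, which moved the median log2 fold change of all tested genes from -0.06 to -0.52, Cbfa2t3 was at 0.23, Cbfa2t2 at -0.45 and Runx1t1 at -0.84. Cbfa2t3 thus remained above that median and Runx1t1 below it. The 3 RUNX genes, Cbfb and Runx1t1 were lower, and Cbfa2t3 was higher, under each scaling tried.

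None of the 7 genes passed the threshold of an adjusted p under 0.05, and neither did any other gene (0 of 14237, 0%). At an unadjusted p under 0.05, 4 of the 7 genes were lower (Runx1, Runx2, Runx3 and Cbfb), where 13.1% of all tested genes were lower. In the same test 1, Cbfa2t3, was higher, where 19.3% of all were higher. The CPM of the groups did not overlap for 5 genes on the lower side, where 18.8% of tested genes were so placed, and for 1 on the higher side, where 20.2% were. The median log2 fold change of the 7 genes was -0.55, beside -0.06 over all tested genes.

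With Runx1_FB_KO replicate 3 left out, Runx1, Runx2, Runx3, Cbfb and Cbfa2t3 passed. Replicate 3 was the knockout library nearest to CTL, so leaving it out by itself widens differences and narrows the spread. Calls from this fit, here and below, are therefore not independent support. With any other library left out, 0 genes were called. Without Runx1_FB_KO replicate 3, 22.5% of 14609 genes were called lower and 25.1% higher. Runx1 was then at a log2 fold change of -2.61 (SE 0.22, edgeR adjusted p = 0.000142), Runx3 at -2.55 (SE 0.31, edgeR adjusted p = 0.000661) and Runx2 at -1.96 (SE 0.28, edgeR adjusted p = 0.00131). Cbfb was at -0.74 (SE 0.14, edgeR adjusted p = 0.00393) and Cbfa2t3 at 0.96 (SE 0.18, edgeR adjusted p = 0.0046), whereas Runx1t1 and Cbfa2t2 were not called. DESeq2 on all 6 libraries called Runx2 (adjusted p = 0.04996) and Runx3 (adjusted p = 0.0398) lower, where it called 3.58% of 20191 genes lower. It called Cbfa2t3 (adjusted p = 0.0362) higher, where it called 10.3% higher, and did not call Runx1 (adjusted p = 0.0625).

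**Figure D2:**
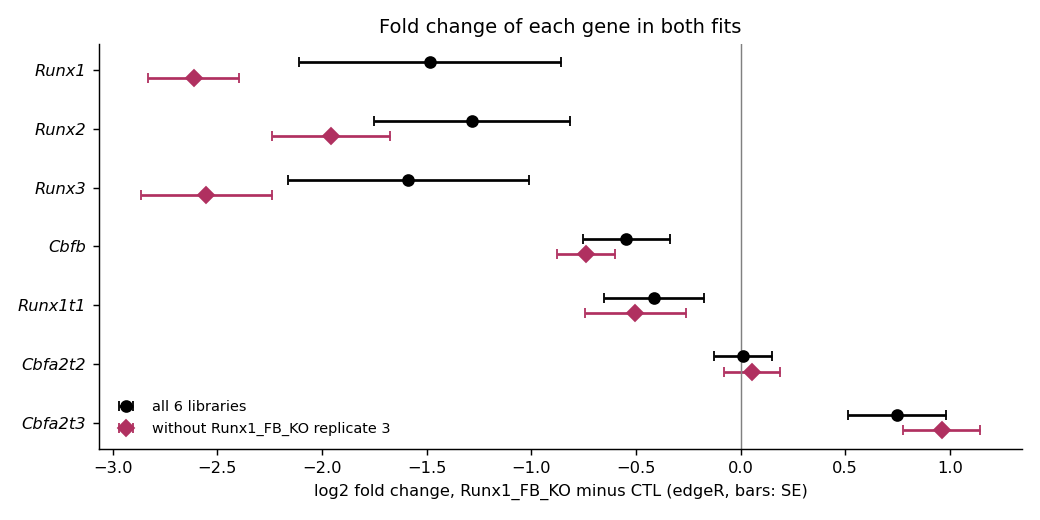
Log2 fold change of Runx1_FB_KO over CTL with its SE (horizontal axis) for the 7 genes, fitted with edgeR on all 6 libraries (black circles) and without Runx1_FB_KO replicate 3 (red diamonds). The RUNX genes lie between -1.59 and -1.28 in the first fit and between -2.61 and -1.96 in the second, while Cbfa2t2 lies at 0.01 and 0.05.

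Cbfb exceeded the summed RUNX factors by a nearly constant factor in CTL and by a larger one in the knockout libraries. Runx1, Runx2 and Runx3 summed to 46.3, 37.4 and 40.7 TPM in CTL, and Cbfb over that sum was 1.12, 1.15 and 1.15. In Runx1_FB_KO the sum was 4.15, 2.63 and 25.7 TPM and the ratio 3.23, 5.32 and 1.44. Every knockout library lay above every CTL library, with replicate 3 nearest. A ratio within a library does not depend on its scaling, and this one shows unequal change, not which gene moved.

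Runx1 supplied most RUNX transcripts in each library. Its share of the summed RUNX TPM was 76.2%, 74.7% and 76.5% in CTL and 69.9%, 65.1% and 73.7% in Runx1_FB_KO. The share of Runx2 was 12.4%, 14.5% and 12.7% in CTL and 19.9%, 24.3% and 16.8% in Runx1_FB_KO. The share of Runx3 was 11.4%, 10.8% and 10.8% in CTL and 10.2%, 10.6% and 9.48% in Runx1_FB_KO. The groups did not overlap for any of the 3 shares, though for Runx3 they nearly touched. For Runx1 and Runx2 the separation rested on few reads. Runx2-205, of 440 bases, was given 5.0 reads in CTL replicate 2 and 3.6 in Runx1_FB_KO replicate 3. Those reads made 1.93 and 1.40 TPM of Runx2. Without transcripts under 500 bases Runx2 was at 3.49 and 2.92 TPM in these libraries, and the groups overlap in the shares of Runx1 and Runx2.

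The ETO genes summed to 20.0, 17.2 and 18.9 TPM in CTL and to 9.79, 12.2 and 16.1 TPM in Runx1_FB_KO. In CTL replicate 1, 4.42 TPM of that sum came from the 8.8 reads of Runx1t1-205. Without transcripts under 500 bases the groups overlap in the ETO sum, as CTL replicate 1 then lies below Runx1_FB_KO replicate 3. In CPM, which is not divided by length and here carries the TMM scaling, the direction turned, with 49.0, 55.1 and 54.1 in CTL and 59.6, 73.0 and 56.4 in Runx1_FB_KO. TPM shares its total with the mitochondrial reads given above. The TMM factors were 1.16 to 1.21 in CTL and 0.765, 0.732 and 1.08 in Runx1_FB_KO replicates 1, 2 and 3. What turned the direction was not tested. The RUNX sum over the ETO sum, in TPM, was 2.32, 2.18 and 2.15 in CTL and 0.424, 0.215 and 1.59 in Runx1_FB_KO. Without transcripts under 500 bases that ratio is higher in CTL replicate 1. RUNX transcripts thus outnumbered ETO transcripts in 4 libraries and were outnumbered in knockout replicates 1 and 2.

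**Figure D3:**
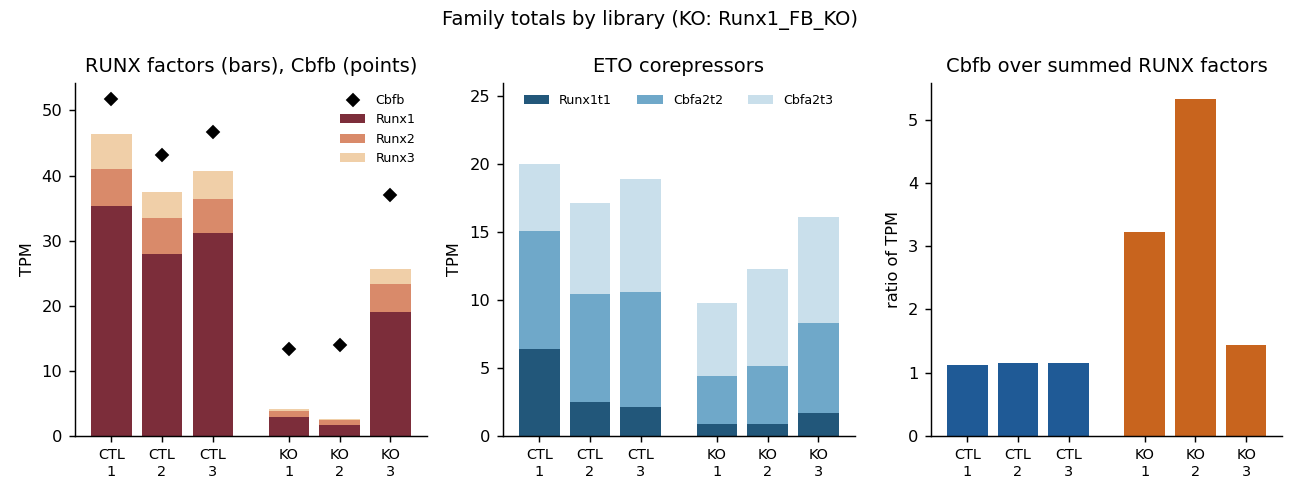
TPM by library of the 3 RUNX factors (left, stacked bars, with Cbfb as black points), of the 3 ETO corepressors (middle, stacked bars) and the ratio of Cbfb to the summed RUNX factors (right). Cbfb sits just above the RUNX stack in CTL, at ratios of 1.12 to 1.15, and far above a shrunken stack in knockout replicates 1 and 2, at 3.23 and 5.32.

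The tables list 55 transcripts of the 7 genes, of which 10 had reads in every library, 16 had none in any and 15 passed the filter for testing. No transcript in the data passed the test of its level (0 of 32454, 0%). Without Runx1_FB_KO replicate 3, Runx1-201 (log2 fold change -2.64, edgeR adjusted p = 0.00438), Runx3-201 (-2.54, edgeR adjusted p = 0.0176), Cbfa2t2-206 (edgeR adjusted p = 0.0176) and Runx1-203 (edgeR adjusted p = 0.0479) were called lower, where 6.59% of 36048 transcripts were. Reads of transcripts that share exons are divided by Salmon's model, and the error of that division is not in these p-values.

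The distal and proximal transcripts of Runx1 both lay below CTL in every knockout library. Runx1-201, which starts at the distal promoter, is the longest and has 2265 bases found in no other annotated transcript. Its 3' end lies 2190 bases beyond that of Runx1-202, so the split between them does not measure the start alone. Runx1-201 was given 1546, 1435 and 1244 reads in CTL and 181, 118 and 997 in Runx1_FB_KO. Runx1-202, from the proximal promoter, was given 530, 475 and 381 reads in CTL and 84.8, 18.3 and 310 in Runx1_FB_KO. The transcripts of the distal start held 63.0%, 67.6% and 61.9% of the gene's TPM in CTL and 63.2%, 82.6% and 71.0% in Runx1_FB_KO. The shares overlapped, and their means differed by 8.10 percentage points (exact permutation test, two-sided p = 0.2, where 0.1 is the smallest possible with 3 against 3).

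A minor transcript from near the proximal start, Runx1-203, had reads in CTL alone. It was given 72.0, 15.4 and 73.2 reads in CTL and 0 in each knockout library. With the knockout total set to 3 counts, its pooled scaled level was 39.3-fold lower. That is no bound on a true change, because Salmon divides the shared reads. Runx1-203 has 0 bases of its own, and its use within the gene was not called (edgeR adjusted p = 0.675). Its level was called without Runx1_FB_KO replicate 3, as given above, and not with all 6 libraries (edgeR adjusted p = 0.151).

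Runx2 was assigned to different promoters in different libraries. Runx2-203, from the proximal start, was given 430, 270 and 219 reads in CTL and 0, 6.7 and 202 in Runx1_FB_KO. Runx2-202, from the distal start that carries the shared block, was given 0, 0 and 29.3 reads in CTL and 53.5, 37.3 and 0 in Runx1_FB_KO. Distal transcripts held 0%, 0.86% and 8.35% of Runx2 TPM in CTL and 61.9%, 65.2% and 0% in Runx1_FB_KO. Knockout replicates 1 and 2, which hold 63 and 45 Runx2 reads in all, stood apart from the other 4 libraries, and the groups overlapped through replicate 3 (exact permutation test, two-sided p = 0.4). Runx2-202 has 0 bases of its own and Runx2-203 has 472, and the use of neither was called.

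Runx3 reads were mostly given to its distal start. That start held 84.5%, 100% and 81.6% of Runx3 TPM in CTL and 100% in each knockout library. Its transcript Runx3-201 has 2321 bases of its own, and its 3' end lies 1809 bases beyond that of Runx3-202. The share therefore also reflects the 3' end and does not measure the start alone. Runx3-201 was given 214, 192 and 151 reads in CTL and 27.0, 15.0 and 115 in Runx1_FB_KO, which is all of the gene's reads in the knockout. The proximal Runx3-202 was given 14.5, 0 and 13.0 reads in CTL and 0 in each knockout library. With the knockout total set to 3 counts, that is 6.72-fold lower in pooled scaled level, from 27.5 reads in all.

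The 2 main Cbfb transcripts begin 15 bases apart and differ in 23 and 31 bases of their own. Cbfb-201 was given 860, 415 and 783 reads in CTL and 148, 195 and 430 in Runx1_FB_KO. Cbfb-202 was given 783, 982 and 508 reads in CTL and 442, 332 and 741 in Runx1_FB_KO. CTL replicate 2 alone broke the CTL balance, with 64.3% of Cbfb TPM in Cbfb-202 against 43.4% and 36.1%, and the knockout libraries held 58.2% to 71.6%. The groups overlapped in this share (exact permutation test, two-sided p = 0.3).

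Cbfa2t2 was the one gene of the 7 with a called difference in transcript use. Cbfa2t2-206 lacks the first exons and starts at an internal site. It was given 119, 175 and 54.3 reads in CTL and 0 in each knockout library. With the knockout total set to 3 counts, its pooled scaled level was 85.1-fold lower. That is no bound on a true change, because Salmon divides the shared reads. Cbfa2t2-206 held 19.8%, 31.9% and 10.8% of Cbfa2t2 TPM in CTL and 0% in Runx1_FB_KO. The test of transcript use called it (edgeR adjusted p = 0.00348), where 0.56% of 26604 transcripts were called. The full-length Cbfa2t2-201 held 66.0%, 66.5% and 83.8% of TPM in CTL and 97.9%, 89.8% and 100% in Runx1_FB_KO. Both transcripts have 0 bases of their own, so the split is Salmon's allocation over shared exons. The edgeR call held when each library was left out in turn (adjusted p from 0.0118 to 0.0428) and was lost with limma's diffSplice (adjusted p = 0.1004) and with the replicate number as a block (adjusted p = 0.133).

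The 3 main transcripts of Cbfa2t3 had positive fold changes, none past the threshold. Cbfa2t3-203, from the upstream start, was given 249, 305 and 229 reads in CTL and 274, 332 and 251 in Runx1_FB_KO. After TMM scaling it had a log2 fold change of 0.62 (SE 0.30, edgeR adjusted p = 0.349). Cbfa2t3-202 and Cbfa2t3-201, from the downstream start, were at log2 fold changes of 0.72 and 1.17, with edgeR adjusted p of 0.53 and 0.457. The upstream start held 49.7%, 44.8% and 30.7% of Cbfa2t3 TPM in CTL and 37.0%, 40.4% and 31.8% in Runx1_FB_KO, and the groups overlapped. The 3' end of Cbfa2t3-203 lies 4797 bases beyond that of Cbfa2t3-202, so this share does not measure the start alone. Runx1t1-201, which held 76.3% to 100% of the Runx1t1 reads of a library, was given 153, 194 and 105 reads in CTL and 79.8, 52.3 and 121 in Runx1_FB_KO.

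**Figure D4:**
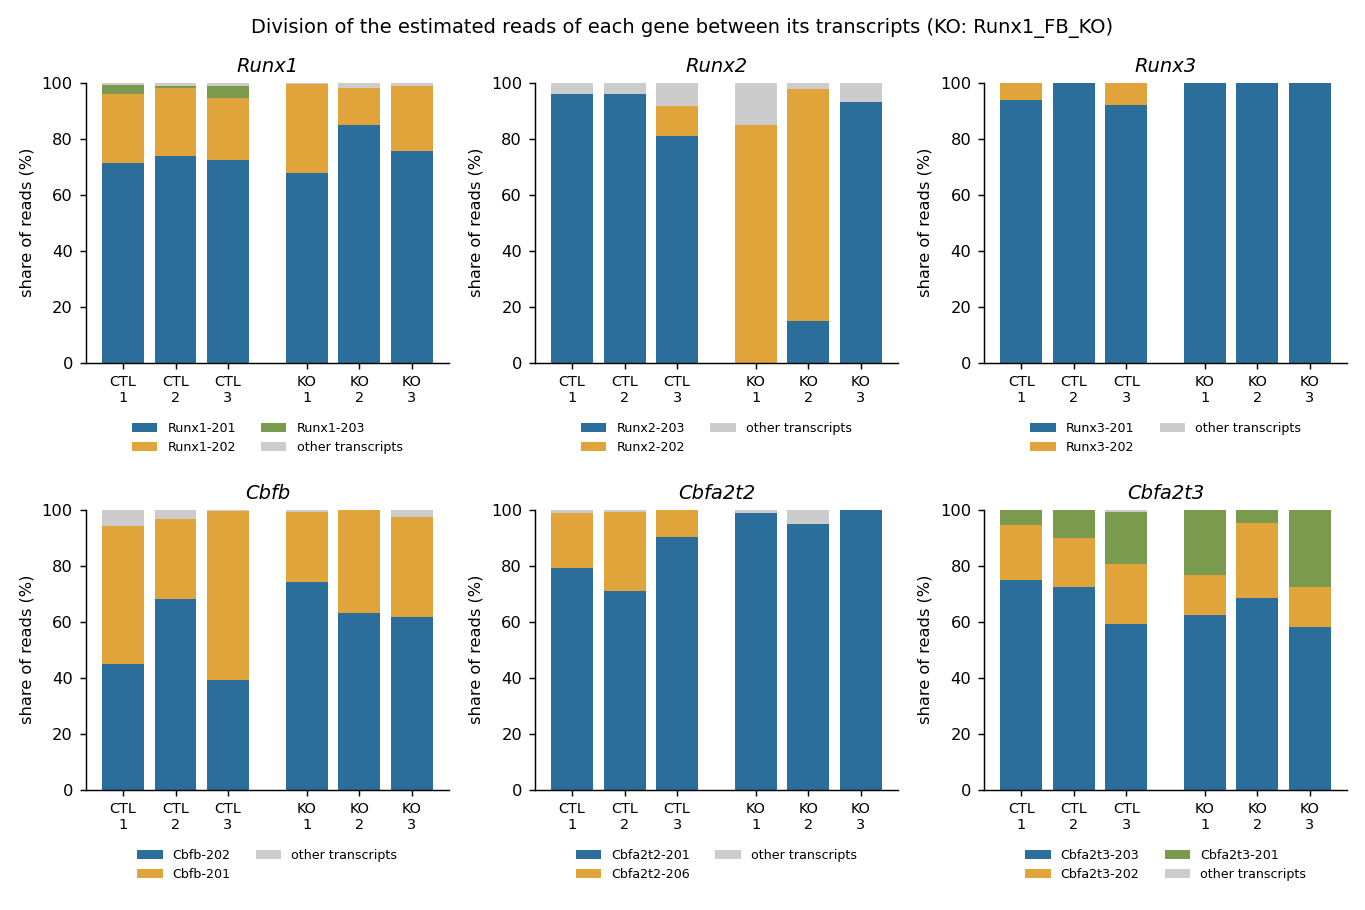
Percent of the estimated reads of each gene except Runx1t1 given to its named transcripts, 1 bar per library (CTL replicates 1 to 3, then Runx1_FB_KO, marked KO, replicates 1 to 3), with other transcripts in grey. Runx1-201 leads Runx1 in all libraries, with 67.9% (knockout replicate 1) to 85.0% (knockout replicate 2) of its reads. Runx2 is given mostly to Runx2-202 in knockout replicates 1 and 2 only, and Cbfa2t2-206 has reads in CTL only.

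Runx1 was set beside markers of activated fibroblasts, among them Postn, whose promoter drives the recombinase. The 12 markers (Postn, Cthrc1, Fap, Acta2, Tagln, Col1a1, Col3a1, Col5a2, Lox, Ltbp2, Fn1 and Tnc) had a median log2 fold change of -1.29. Of them, 6 did not overlap between groups, all lower, where 18.8% of all tested genes were so placed. At an unadjusted p under 0.05, 1 was lower, where 13.1% of all tested genes were, and 0 passed the threshold. The mean log2 CPM of the markers, set to 0 for the CTL mean, was -2.40, -2.69 and -0.14 in Runx1_FB_KO replicates 1, 2 and 3. In CTL it was -0.01 to 0.00. Runx1 minus this mean was 0.10, -0.05 and -0.06 in CTL and 0.06, -0.35 and -0.27 in Runx1_FB_KO. Knockout replicates 2 and 3 lay below every CTL library and replicate 1 within the CTL range, a difference of means of -0.19 (exact permutation test, two-sided p = 0.3). With 3 against 3 this test cannot go below 0.1, so it does not show that Runx1 and the markers moved alike. Beside Postn alone the difference was -0.26 (exact permutation test, two-sided p = 0.8).

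Runx2 and Runx3 overlapped between groups beside these markers. Runx2 in knockout replicates 1 and 2 lay above its CTL range, at 0.57 and 0.63 against -0.26 to 0.41. The difference of means was 0.30 for Runx2 and -0.15 for Runx3 (exact permutation test, two-sided p = 0.4 for each). Cbfb at 1.17 and Runx1t1 at 1.33 overlapped as well, through Runx1_FB_KO replicate 3 (exact permutation test, two-sided p = 0.2 for each). Cbfa2t2 at 1.75 and Cbfa2t3 at 2.46 were higher beside the markers in every knockout library (exact permutation test, two-sided p = 0.1 for each, the smallest possible). These 7 p-values are not adjusted, and with Benjamini-Hochberg adjustment none could be under 0.1.

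**Figure D5:**
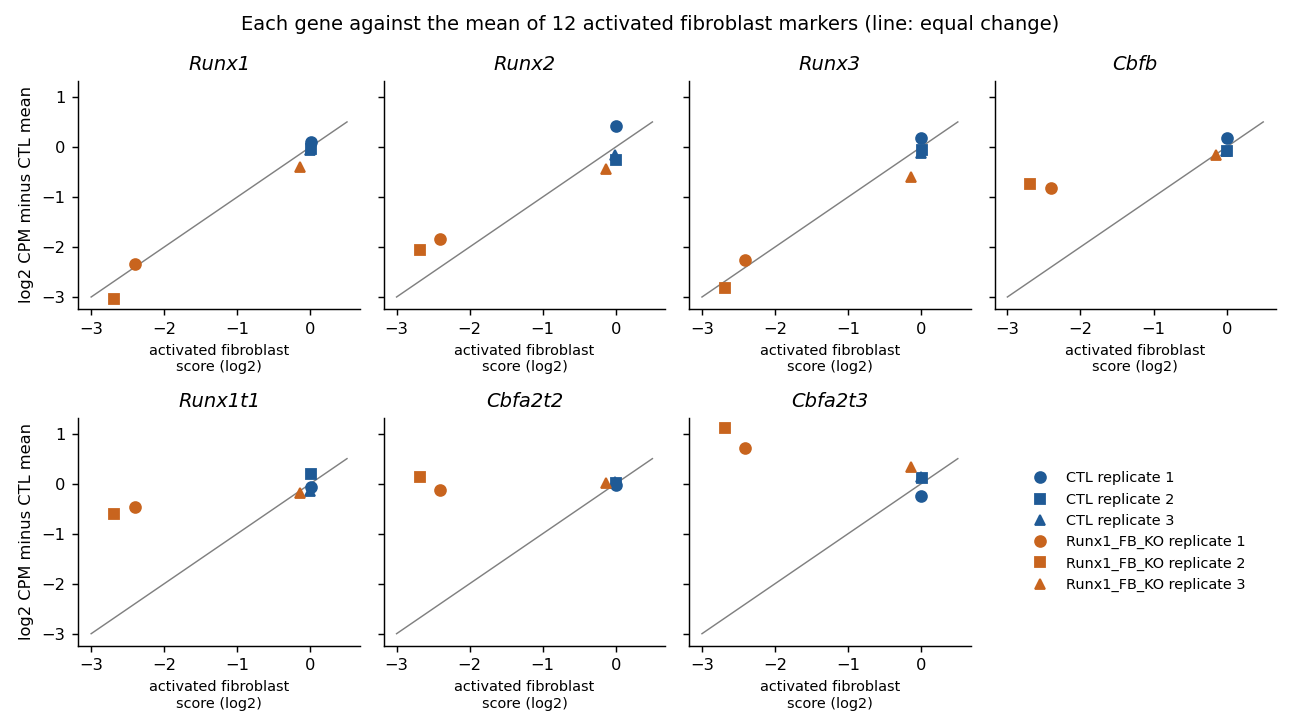
Log2 CPM of each gene minus its CTL mean (vertical axis) against the mean of the 12 activated fibroblast markers on the same scale (horizontal axis), 1 point per library, with a line of equal change. In knockout replicates 1 and 2, Runx1 and Runx3 lie nearest the line, Runx2 lies above it by 0.57 and 0.63, and Cbfb and the ETO genes lie further above it.

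Other cell types moved in the same libraries, and their part in the RUNX differences was not tested. Counts of markers without overlap stand here beside 18.8% lower and 20.2% higher among all tested genes. Macrophages also express Runx1, and their 11 markers had a median log2 fold change of -0.97, with 6 not overlapping, all lower. Runx1 minus the macrophage mean differed by -0.90 between groups (exact permutation test, two-sided p = 0.2), with overlap. Runx2 at -0.41 and Runx3 at -0.86 were lower beside the macrophage mean in every knockout library, and Cbfa2t3 at 1.75 was higher (exact permutation test, two-sided p = 0.1 for each, the smallest possible). Cbfb at 0.46, Runx1t1 at 0.62 and Cbfa2t2 at 1.04 overlapped (exact permutation test, two-sided p = 0.2 for each). Of 7 tested T and NK cell markers, where Runx3 is known to act, 6 did not overlap, all lower. All 9 listed markers, tested or not, summed to 12.9 to 20.7 CPM in CTL and 3.86 to 6.64 CPM in Runx1_FB_KO. All 12 cardiomyocyte markers were higher without overlap, with a median log2 fold change of 2.51. Endothelial markers had a median of -0.04, with 2 of 9 higher and 2 lower without overlap, near the shares of all tested genes.

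The remaining marker lists moved less or held few reads. Median log2 fold changes were 0.15 for 8 resting fibroblast markers, -0.25 for 6 markers of pericytes and smooth muscle and 0.57 for 2 Schwann cell markers. They were -0.85 for 5 neutrophil, -2.58 for 5 B cell, -0.56 for 5 mast cell, -0.64 for 3 platelet and -0.43 for 3 red cell markers. No more than 2 genes of any of these lists separated the groups in a direction, against the 18.8% and 20.2% of all genes given above.

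The corepressors and coactivators that RUNX proteins use had list medians between -0.30 and 0.13. In this and the following lists, counts at an unadjusted p under 0.05 stand beside 19.3% higher and 13.1% lower among all tested genes. Among the 6 Groucho/TLE genes, whose proteins bind the end of RUNX factors, 1 was higher and 1 lower at an unadjusted p under 0.05, and the median log2 fold change was -0.30. Aes (Tle5), a short member without the WD40 domain, was at 284, 276 and 293 CPM in CTL and at 654, 752 and 331 CPM in Runx1_FB_KO. Tle3 averaged 70.3 ± 2.25 CPM in CTL and 42.9 ± 15.4 CPM in Runx1_FB_KO (SD, n = 3; log2 fold change -0.71, edgeR adjusted p = 0.115). Aes and Tle3 thus lay on opposite sides of CTL, while 3 of the 6 genes overlapped between groups. Of 12 NCoR, SIN3 and histone deacetylase genes, 1 was higher and 3 lower, with a median of -0.20. The smallest p were those of Suv39h1, a histone methyltransferase (17.0 ± 2.92 and 10.3 ± 0.51 CPM; log2 fold change -0.72), and Hdac1 (59.8 ± 6.46 and 38.0 ± 7.50 CPM; log2 fold change -0.65). Of 9 coactivators 1 was higher and 0 lower, with a median of 0.13. They were led by Kat6a, a histone acetyltransferase, at 53.8 ± 2.07 and 71.2 ± 6.54 CPM, and by Yap1, an effector of the Hippo pathway, at 88.7 ± 4.83 and 117 ± 19.5 CPM.

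Enzymes that modify RUNX proteins had shares at an unadjusted p under 0.05 near those of all genes. Of 15 kinases, ubiquitin ligases and isomerases, 2 were higher and 2 lower, beside 19.3% and 13.1% of all tested genes, with a median log2 fold change of 0.05. Hipk2, a kinase that phosphorylates RUNX1, was at 43.8, 65.0 and 52.9 CPM in CTL and at 118, 112 and 79.2 CPM in Runx1_FB_KO. Mapk3 (ERK1) averaged 114 ± 5.47 CPM in CTL and 74.1 ± 17.1 CPM in Runx1_FB_KO (SD, n = 3). Their log2 fold changes were 0.94 and -0.62.

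DNA-binding partners of the blood programme had more genes below CTL than above. Of 14 tested genes of 15 (Gata1 was not tested), 6 were lower and 0 higher at an unadjusted p under 0.05, beside 13.1% lower and 19.3% higher of all tested genes, and the median log2 fold change was -0.27. The 6 include the myeloid factors Spi1 and Cebpa, and macrophage markers were lower in the same libraries. Their part in this count was not tested. Without Runx1_FB_KO replicate 3, 6 were called lower and 1 higher, which was Gata2, a blood stem cell factor, at 1.06 (edgeR adjusted p = 0.00798). Ldb1, the bridging factor of complexes that include Cbfa2t3, was at 103, 97.3 and 117 CPM in CTL and at 68.0, 78.4 and 75.1 CPM in Runx1_FB_KO, so that Ldb1 and Cbfa2t3 lay on opposite sides of CTL. Lyl1, which encodes a basic helix-loop-helix factor, averaged 18.3 ± 3.08 CPM in CTL and 9.83 ± 3.15 CPM in Runx1_FB_KO (SD, n = 3; log2 fold change -0.89). Of 12 tested skeletal and TGF-beta partners of 15, 3 were lower and 0 higher, with a median of -0.42. They were led by Smad1, a BMP signal transducer, at a log2 fold change of -0.52, and Cebpb, a bZIP factor, at -0.39. Msx2, Dlx5 and Sp7, genes of bone formation, had too few reads to test.

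Among known RUNX targets in leukocytes the values lay below CTL for each gene that separated the groups. Of 8 tested leukocyte targets of 12, 3 were lower and 0 higher, with a median log2 fold change of -1.05. Itgal, the CD11a integrin of leukocytes, was at 13.2, 10.7 and 12.1 CPM in CTL and at 3.14, 4.22 and 5.41 CPM in Runx1_FB_KO. Its log2 fold change of -1.49 had an edgeR adjusted p of 0.0682, the same value as Vegfa and Alpl. Spi1 (PU.1), a myeloid factor, was at 73.4, 44.9 and 56.6 CPM in CTL and at 20.3, 14.3 and 40.4 CPM in Runx1_FB_KO. Both genes are also expressed by the macrophages whose markers were lower in the same libraries.

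Of 11 tested skeletal targets of RUNX2 of 16, 2 were higher and 0 lower at an unadjusted p under 0.05, while the median log2 fold change was -1.21. Mmp9, Col1a1, Col1a2 and Tnfsf11 had lower CPM in every knockout library than in any CTL library. Without Runx1_FB_KO replicate 3, 2 genes were called higher and 5 lower (Col1a1, Col1a2, Tnfsf11, Spp1 and Col10a1), beside 25.1% and 22.5% of all genes. Col1a1 is also among the activated fibroblast markers. Vegfa, an angiogenic ligand, was at 69.0, 58.4 and 58.9 CPM in CTL and at 246, 227 and 136 CPM in Runx1_FB_KO (log2 fold change 1.71). Alpl, tissue non-specific alkaline phosphatase, was at 14.3, 18.2 and 12.8 CPM in CTL and at 34.8, 36.4 and 30.8 CPM in Runx1_FB_KO (log2 fold change 1.17). Both lay above CTL in each knockout library, replicate 3 included. Ibsp and Bglap, bone matrix genes, had 0 reads in all libraries. In the 8 lists of cofactors, partners and targets, 0 genes passed the threshold.

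Genes with the pattern most like each member were found by the root-mean-square (RMS) distance between centred log2 CPM over the 6 libraries, among 10142 expressed protein-coding genes. Runx1 was nearest to Sertad4 (RMS 0.088), Ms4a7 (0.142), a macrophage gene, and P4ha3 (0.161), a collagen prolyl hydroxylase subunit. Runx3 lay at 0.126 from Runx1, with 1 gene of that pool nearer, so the 2 paralogs had almost the same profile. Runx3 was nearest to Dok1 (0.082), Sertad4 (0.103) and Col27a1 (0.123). Runx2 was nearest to 3 genes of which Csf3r, the G-CSF receptor (0.065), and Vav1, a signalling factor of blood cells (0.071), are leukocyte genes, with Pi4k2b (0.079) the other.

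The partner and the corepressors were nearest to other genes. Cbfb was nearest to Rps26 (RMS 0.028), Asl (0.036) and Lrwd1 (0.038), and Runx1t1 to Irgm1 (0.038), Zfp260 (0.059) and B2m (0.061). Cbfa2t2 was nearest to Smad5 (0.0055), Wdr61 (0.026) and Ncbp1 (0.027), and Cbfa2t3 to Caskin2 (0.043), Naa35 (0.068) and U2af1l4 (0.070). Distances are small for genes that vary little, and with 6 libraries of 2 groups they describe these profiles only.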

How the data were processed

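The authors deposited, per library, a Salmon transcript table with estimated counts, TPM and effective length. Salmon 1.5.2, DESeq2 1.44.0 and mm10 (GRCm38) are named in the submitters' processing notes. The annotation release and how reads were assigned to strands were not given in the sources used here. Of 116546 transcripts, 115977 matched GENCODE M21 (GRCm38), and the 569 others, with at most 0.102% of a library's reads, were not used. Estimated counts, summed per gene or kept per transcript, were rounded, filtered with filterByExpr, scaled by TMM and tested with edgeR 4.0.16 (quasi-likelihood, genotype alone, Benjamini-Hochberg over all features, threshold 0.05), and transcript use with diffSpliceDGE. The deposited TPM values were summed for levels and shares, and the deposited effective lengths, another column, served as an offset in an alternative. Tests were checked on simulated data. Groups came from the titles, and the same replicate number was not treated as a pair in the main fit. Correlations between same-numbered libraries were -0.05, 0.11 and 0.08, which with 3 libraries per group cannot exclude a pairing or shared batch. The alternatives were sex as a covariate, a replicate block, other scalings, no filter, DESeq2 1.42.0, limma 3.58.1 and leaving out each library. Members and gene lists were chosen with earlier results of these data known. From each list without a called gene the 2 with the smallest p were named, from each member the 3 nearest genes and the transcripts with at least 10% of its TPM, and Runx1-203, Runx3-202, Gata2, Cebpa and the skeletal targets other than Vegfa and Alpl were named after their values were seen.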

Additional observations from a re-analysis of the deposited data

How the results depend on the processing

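Called genes numbered 0 on all 6 libraries, 889 without the filter, 2810 with DESeq2 and 341 with an effective length offset, and 0 to 6947 when each library was left out, the highest without Runx1_FB_KO replicate 3 (0 without any other). At an unadjusted p under 0.05 there were 4619. Called transcripts numbered 0, then 12 without the filter and 0 to 5191 when each library was left out. Calls of transcript use numbered 149, then 45 with the replicate block, 78 with limma diffSplice and 97 to 415 when each library was left out. The replicate block called 0 genes and took Cbfa2t2-206 to an adjusted p of 0.133. The Runx1 log2 fold change ran from -2.61 to -1.07 over the omissions, the smallest without Runx1_FB_KO replicate 2. Runx1 relative to activated fibroblasts kept its direction in each alternative.

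Cbfa2t2, at 0.01, turned to -0.0149 with sex as a covariate, -0.45 with library size alone, -0.0626 with upper-quartile scaling and -0.12 with the effective length offset. Over the omissions it ran from -0.0493 without Runx1_FB_KO replicate 2 to 0.0767 without Runx1_FB_KO replicate 1, and was -0.0028 without CTL replicate 1. Cbfb-202 turned from -0.19 to 0.0254 without CTL replicate 2 (-0.373 without CTL replicate 3). The difference in share of Runx1t1-201 turned from 16.2 to -2.77 percentage points without CTL replicate 1 (31.7 without CTL replicate 2). By CPM of summed counts, which ignores length, Runx1 ranked 1 and Cbfb 2. The causes were not tested. Depth limits the minor transcripts, several of which hold fewer than 30 reads.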
